A study of Mus musculus with 162 samples.

Results

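The 8 genes described here encode the steps of gluconeogenesis that glycolysis does not share, together with the carrier that brings their last substrate into the endoplasmic reticulum. They were chosen by name for their place in the pathway, and each was taken from the count table by its symbol, which makes 8 of 53686 genes. Pcx encodes pyruvate carboxylase, which makes oxaloacetate from pyruvate in mitochondria. Pck1 and Pck2 encode the cytosolic and the mitochondrial phosphoenolpyruvate carboxykinase, Fbp1 and Fbp2 the liver and the muscle form of fructose-1,6-bisphosphatase, and G6pc and G6pc3 glucose-6-phosphatases of which G6pc is the liver enzyme. Slc37a4 encodes the transporter of glucose 6-phosphate. Liver makes glucose from lactate, glycerol and amino acids when no food is taken. Adipose tissue uses pyruvate carboxylase and the cytosolic carboxykinase to make glycerol 3-phosphate, and has no use for glucose-6-phosphatase in that route.

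Male C57BL/6J mice of 8 to 9 weeks were fed ad libitum (0 h) or fasted for 2, 8, 12, 18 or 22 h, with 3 mice at each time and 18 in all. Every mouse was killed in the same window early in the dark phase, so that fasts of different length began at different clock times. Each gave 9 organs: olfactory bulb (OB), telencephalon with diencephalon (BRN), cerebellum (CBL), brainstem with midbrain (BST), stomach (STM), liver (LIV), interscapular brown fat (iBAT), perigonadal white fat (pgWAT) and posterior subcutaneous white fat (psWAT). The study left out 5 libraries for low totals (BRN 8 h replicate 3, BRN 18 h replicate 1, STM 12 h replicate 3, iBAT 22 h replicate 1 and psWAT 22 h replicate 2), and the others are used below.

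Depth differed between and within organs. Total counts ran from 8224940 to 17704828 in OB, 3045845 to 12108290 in BRN, 6487419 to 22071004 in CBL, 6998492 to 11776354 in BST and 6851903 to 13769280 in STM. They ran from 6959200 to 12451777 in LIV, 3156101 to 27801717 in iBAT, 5784709 to 19829510 in pgWAT and 4099281 to 9802381 in psWAT. Because of that spread, 3 counts stand for 0.108 CPM in the deepest library and for 0.985 CPM in the shallowest, and a value at or under 3 counts is treated as not distinguished from 0. Levels below are CPM on library totals scaled by TMM factors within each organ (normalized CPM). Intervals and floors cover counting error only.

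Marker genes of each organ were summed in its libraries, and some libraries hold other tissue besides. In LIV the 6 hepatocyte markers, all detected, summed to 76131 at the lowest, 90315 at the median and 100501 at the highest, with Alb the most abundant. The brown adipocyte list summed to 4607, 7562 and 15301 in iBAT in the same order, led by Ucp1. Adipocyte markers, led by Fabp4, summed to 9223, 12782 and 27816 in iBAT and to 5005, 36360 and 71023 in pgWAT. In psWAT the same sum ran from 540.1 through a median of 5344 to 38371. Parietal and chief cell markers, led by Pgc, reached 71091, 127724 and 262160 in STM, and gastric surface markers 9706, 36586 and 99605. The neuron list had medians of 4003 in OB, 3101 in BRN, 4348 in the cerebellum and 4183 in BST, and cerebellar neuron markers a median of 2174 in CBL against 68.2, 19.7 and 79.6 in OB, BRN and BST. Kidney proximal tubule markers had a highest sum of 1.99 anywhere. Astrocyte markers had medians of 682.5 in OB, 454 in BRN, 679.5 in the cerebellum and 945 in BST, and also 1060.0 in LIV. The most abundant gene of that list was Gfap in BRN, but Aldh1l1 in STM and iBAT. The sum alone therefore does not show astrocytes outside the brain. Intestinal enterocyte markers had a highest sum of 302 in STM and of 211 in LIV.

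Several libraries stand apart and bear on what follows. The LIV, iBAT and psWAT libraries of 0 h replicate 3 hold the lowest or nearly the lowest Pck1 of their organ (563, 365 and 62.9), while the other 0 h libraries hold 5013 and 5077, 2181 and 2397, and 1381 and 833. In pgWAT the value of replicate 3 at 0 h was 580.5, beside 779 and 827. LIV G6pc was also lowest there, at 85.3 against 304 and 313. The psWAT library of 0 h replicate 3 was poor in adipocyte markers, with a sum of 1749 beside 30782 and 23714. The iBAT library of that replicate was not, with 12782 beside 13411 and 9944.

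Other libraries hold messages of neighbouring tissue. Among pgWAT libraries the epididymis sum was 20733 in 22 h replicate 2, where Crisp1 alone gave 19026 and the adipocyte sum was lowest at 5005, 17727 in 18 h replicate 3 and 2615 in 2 h replicate 2, against an organ median of 9.13. Alb reached 3468 in pgWAT 18 h replicate 2. In STM it reached 402 in 0 h replicate 3 and 778 in 12 h replicate 2, while every other stomach held 69.3 or less. In psWAT 12 h replicate 3 cerebellar neuron markers summed to 1679, led by Cbln1 (672), and neuron markers to 3300, where the organ medians were 0.368 and 4.37, so that this depot holds brain message not far below that of CBL itself. Skeletal muscle markers summed to 29139 in psWAT 2 h replicate 2 and to 9608 in iBAT 12 h replicate 3. Immune markers, led by Ptprc, ran from 201 to 1589.6 in psWAT, against a highest sum of 25.9 in iBAT. Keratinocyte markers summed from 123.03 to 5105 in STM and skeletal muscle markers from 36.2 to 3965. Pancreatic acinar markers in STM were 242, 116.01 and 602 at 0 h, and between 11.0 and 59.4 at 18 and 22 h.

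Sequencing lanes follow fasting time in several organs. In LIV, STM and OB the libraries of 0 and 2 h and the first 2 replicates of 8 h were read in a lane of their own, and 8 h replicate 3 and all of 12, 18 and 22 h in another. A fit with lane as a covariate leans on the 8 h libraries. Beyond them, lane and fasting cannot be told apart when 12, 18 or 22 h is compared with 0 or 2 h. In pgWAT all 0 h libraries were read in lane 5 and all of 18 and 22 h in lane 6, and in iBAT the retained 22 h libraries had lanes 1 and 3 to themselves. In BRN all 0 h libraries belong to an earlier series of library numbers and all 18 and 22 h libraries to a later one. Within each organ every comparison with 0 h shares the same 3 control libraries.

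The members lie on 6 chromosomes. In the GRCm38 annotation Pck1 spans chr2:173153048-173159273, Pck2 chr14:55540266-55551242, G6pc chr11:101367561-101377903, G6pc3 chr11:102189620-102194081, Pcx chr19:4510472-4621752 and Slc37a4 chr9:44396852-44402968, all on the plus strand. Fbp1 (chr13:62864753-62888282) and Fbp2 (chr13:62836877-62858422) are neighbours on the minus strand, 6330 bases apart. Only Pck2 shares exon bases with another gene, 53 bases or 0.679 percent, with Gm10876 on the opposite strand, which is not in the count table.

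The 8 genes fall into those read in few organs and those read in all. Pcx, at the entry of the pathway, was read in every library of every organ, with medians of 1086 in pgWAT, 621 in iBAT, 255 in LIV, 172 in psWAT, 116.9 in STM, 106 in BRN, 102.3 in BST, 81.1 in CBL and 73.3 in OB. The spread of single libraries ran from 143.9 to 1902 in pgWAT and from 11.9 to 1058 in psWAT, and of neighbours in this order only iBAT and LIV did not overlap (463 to 862 against 180.2 to 312). The top medians lay in fat, where pgWAT and iBAT held more than LIV, while the psWAT libraries include the lowest value of all.

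Pck1 was found in liver and fat. The medians were 4983 in LIV (563 to 8500.4), 3068 in iBAT (365 to 4858), 1414 in pgWAT (209 to 2973) and 270.2 in psWAT (41.3 to 3966), and all 4 ranges overlap. In STM the median was 3.83, with 15 of 17 libraries above 3 counts, and in BRN 5 of 16 libraries were above that floor. No library of OB, CBL or BST passed it. Pck2 was instead read in every library of every organ, with medians from 49.4 in psWAT, 40.2 in CBL, 36.9 in pgWAT, 34.8 in BRN, 34.2 in OB, 24.6 in BST, 22.02 in STM and 19.8 in iBAT down to 6.19 in LIV. Among neighbours only OB and BST, and iBAT and LIV, were apart by more than their spread. LIV, highest for the cytosolic form, is last for the mitochondrial form. Per kb of exon the LIV median was 1453 for Pck1 and 0.793 for Pck2, and the psWAT medians were 78.8 and 6.33.

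The fructose-1,6-bisphosphatase genes had their highest medians in different organs. Fbp1 was high in LIV alone (median 342, range 185 to 529.8), and the next median was 1.82 in pgWAT, where 12 of 18 libraries passed 3 counts. Elsewhere 6 of 17 iBAT libraries, 4 of 17 in STM, 3 of 16 in BRN, 2 of 18 in BST, 1 of 18 in OB and 0 in CBL and psWAT passed it. Fbp2 was highest in STM (median 36.7, 24.9 to 71.2) and iBAT (26.8, 13.1 to 41.7), which overlap. It was lower in pgWAT (4.14) and psWAT (1.32), and passed 3 counts in 2 of 18 LIV libraries, in 1 of 18 in BST, and in 0 of OB, BRN and CBL. Per kb of exon Fbp1 reached 201 in LIV and Fbp2 24.99 in STM and 18.2 in iBAT. The STM libraries with Fbp1 above 3 CPM, 4.71 in 0 h replicate 3 and 11.1 in 12 h replicate 2, are those with liver message. In psWAT the highest Fbp2 values (14.1 in 2 h replicate 2, 11.1 in 8 h replicate 2, 31.5 in 18 h replicate 3 and 12.9 in 22 h replicate 3) fall in libraries with skeletal muscle sums of 29139, 21498, 20979 and 7223.

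G6pc, the enzyme that releases glucose, was a liver gene in these data. Its LIV median was 202.0 (85.3 to 421), the next was 0.410 in pgWAT with 9 of 18 libraries above 3 counts and a highest value of 6.18 in 18 h replicate 2, the library with 3468 of Alb. STM passed the floor in 3 of 17 libraries, BST in 1 of 18, psWAT in 1 of 17, and OB, BRN, CBL and iBAT in 0. G6pc3 was read in every library, with medians of 60.4 in BST, 57.4 in BRN, 48.99 in OB, 47.9 in psWAT, 45.7 in pgWAT, 43.3 in CBL, 38.9 in STM, 35.2 in iBAT and 16.2 in LIV, and only iBAT and LIV at the end of the order were apart. LIV is thus the organ with most G6pc and least G6pc3. Per kb of exon the LIV medians were 83.7 for G6pc and 7.30 for G6pc3.

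Slc37a4 was read everywhere and was highest in LIV. The median was 263 in LIV (212 to 447), then 37.5 in pgWAT, 36.2 in psWAT, 22.5 in iBAT, 22.3 in BST, 21.6 in BRN, 20.4 in CBL, 19.8 in OB and 17.1 in STM, and only LIV stood apart from its neighbour. Per kb of exon the LIV medians order the members as Pck1 (1453), Fbp1 (201), Slc37a4 (92.0), G6pc (83.7), Pcx (53.7), G6pc3 (7.30), Pck2 (0.793) and Fbp2 (0.152). With TMM factors over all organs at once, chosen after seeing the data, the top organ was the same for all 8 genes (Pck1 in LIV 7964, Fbp1 547, Slc37a4 417, G6pc 325). Places below the top moved, such as G6pc3 in iBAT from rank 8 to rank 3 and Pck2 in iBAT from rank 8 to rank 6. Slc37a4 in STM went from rank 9 to rank 7, and in CBL from rank 7 to rank 9. A bulk sample cannot tell fewer cells of a type from less RNA in each cell.

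**Figure D1:**
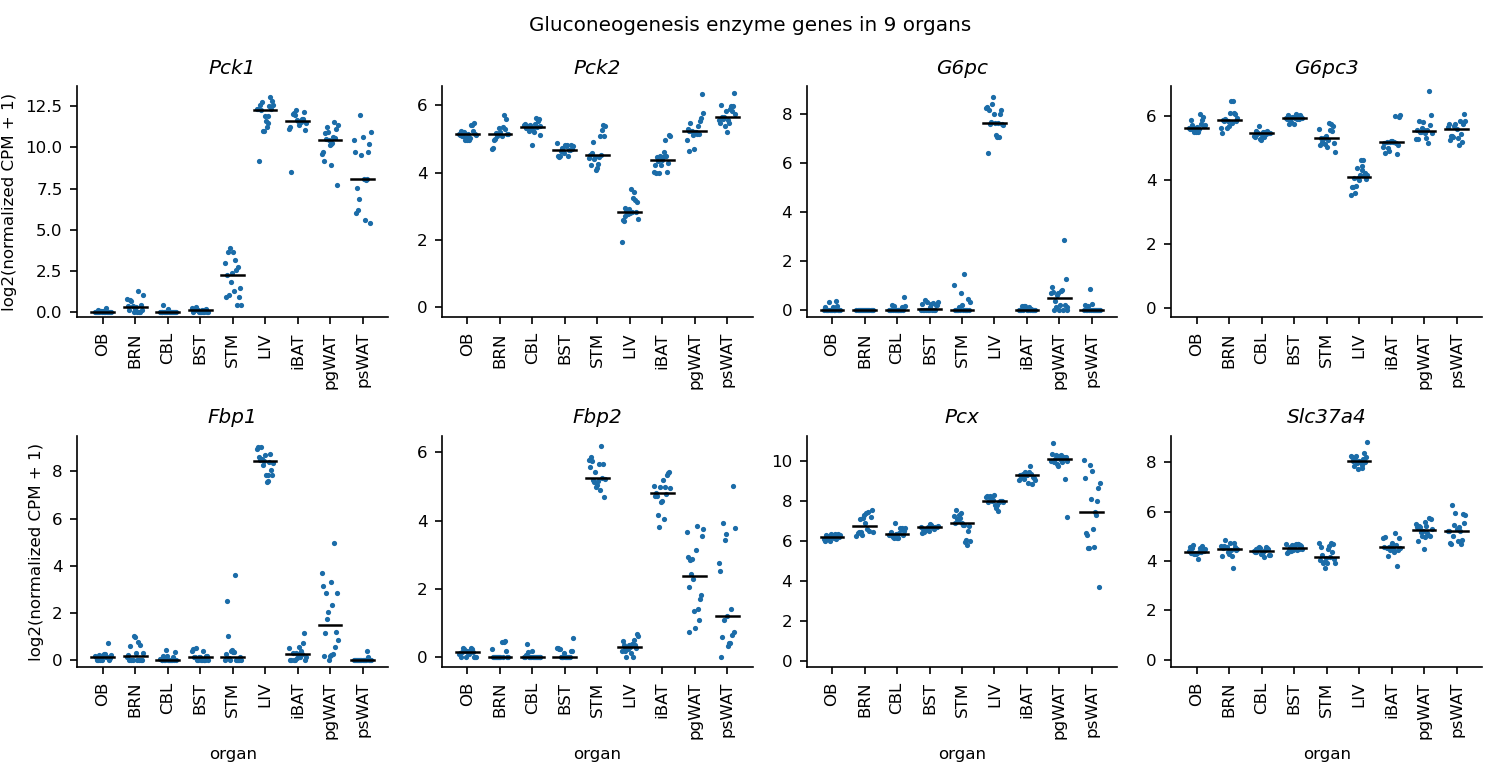
Levels of the 8 genes in 9 organs as log2 of normalized CPM plus 1. Each point is a retained library, the black bar is the median of the organ, and G6pc and Fbp1 stand out in LIV while Pcx and Pck1 are also high in the fat depots.

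In LIV 7 of the 8 members were tested (Fbp2 was too low), and 2 passed the joint test over the 6 fasting times, G6pc3 and Fbp1, beside 16.0 percent of the 14023 genes tested. At 18 and 22 h together against 0 h (the late test), 3 of 7 passed (Pck2 and G6pc3 up, Fbp1 down), beside 10.6 percent of all genes. The median log2 fold change of the 7 was 0.09 and the median absolute value 0.59, against 0.01 and 0.25 over all genes tested. By single times 4 of 7 passed at 12 h and 2 of 7 at 18 h, where 11.9 and 9.97 percent of all genes did. At 2 h 0 of 7 passed in edgeR (0.143 percent of all genes) and 0 had an unadjusted p under 0.05. At 8 h 0 passed (0.471 percent) with 2 at an unadjusted p under 0.05, Pck2 and G6pc3, and at 22 h 0 passed (4.15 percent) with 3, Pck2, G6pc3 and Fbp1. DESeq2 was not run for single times. With lane as a covariate 0 of 7 passed any of these tests.

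Pck1, which encodes the cytosolic carboxykinase, varied widely between mice of the same time. Its LIV values were 5013, 5077 and 563 at 0 h, 6103, 4954 and 6891 at 2 h, 1987, 2027 and 3848 at 8 h, 3116, 2399.7 and 2817 at 12 h, 3788, 5765 and 8500.4 at 18 h, and 5016, 7237 and 6091 at 22 h. All 8 and 12 h libraries lie below the other 2 libraries of 0 h and above replicate 3, and 18 and 22 h overlap with fed and with 2 h livers. Values of 8 and 12 h do not overlap with those of 2 h. Neither the joint test (adjusted p 0.298) nor 18 and 22 h against 0 h (log2 fold change of 0.77 with standard error 0.53 and adjusted p 0.384) passed, although 4 of 6 late libraries lay above all 0 h libraries. Without 0 h replicate 3 the joint test passed with adjusted p 0.0193, and the late log2 fold change was 0.27. With lane in the fit the late log2 fold change was -0.17 with adjusted p 0.955.

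**Figure D2:**
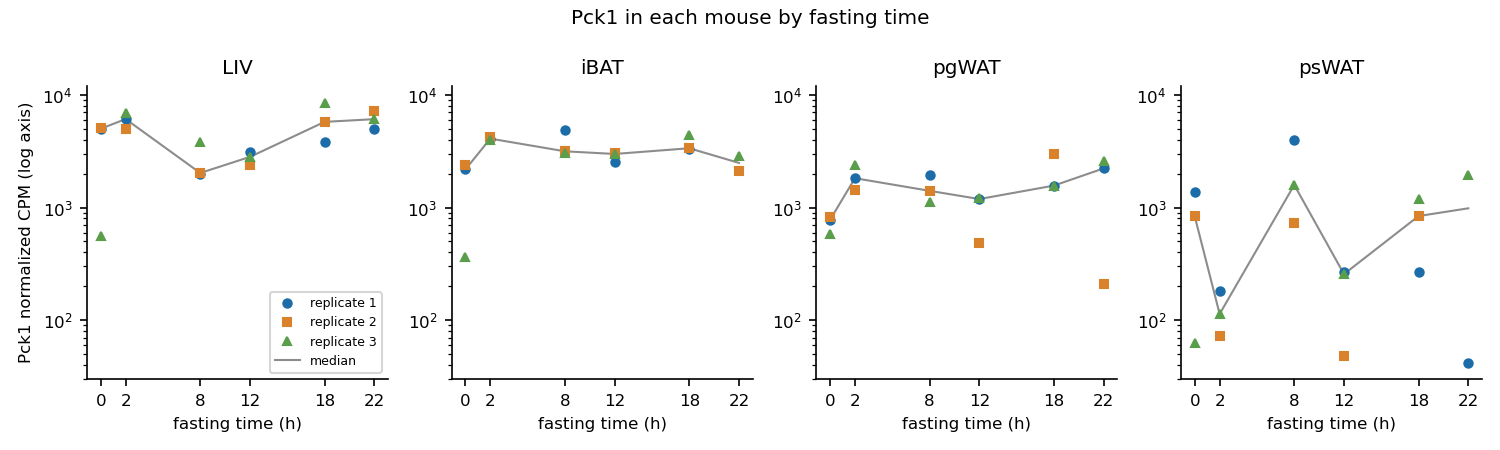
Pck1 in LIV and the 3 fat depots, as normalized CPM on a log axis against fasting time in hours. Symbols give the replicate number, the grey line joins the medians, and the low points of replicate 3 at 0 h show in LIV, iBAT and psWAT.

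G6pc was lowest in the same liver as Pck1, 0 h replicate 3, and highest at 8 h. The LIV values were 304, 313 and 85.3 at 0 h, 288, 191.6 and 204 at 2 h, 338, 421 and 259 at 8 h, 197, 142.6 and 132.8 at 12 h, 200.3, 132.5 and 254 at 18 h, and 292, 191.96 and 190.1 at 22 h. The 8 h libraries include the highest of all, 12 h replicates 2 and 3 and 18 h replicate 2 are the lowest after 0 h replicate 3, and late values overlap with fed ones. No test passed (joint adjusted p 0.362, and for 18 and 22 h log2 fold change of -0.16 with standard error 0.35 and adjusted p 0.820, with 0 of 6 late libraries above all 0 h libraries and 0 below). Without 0 h replicate 3 the joint adjusted p was 0.0492, and 12 h against 0 h gave a log2 fold change of -0.97 with adjusted p 0.0386. Both calls depend on the fed livers counted.

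Fbp1 fell in the fasted livers, furthest at 12 h. Its values were 494, 529.8 and 389 at 0 h, 359.9, 517 and 366 at 2 h, 311, 346 and 416 at 8 h, 231.1, 185 and 229 at 12 h, 189.9, 337 and 421 at 18 h, and 266, 228 and 329 at 22 h. All 3 livers of 12 h lie below every liver of 0, 2 and 8 h, and 5 of 6 livers of 18 and 22 h lie below every fed liver, the other being 18 h replicate 3. Against 0 h the change at 12 h was a log2 fold change of -1.13 with standard error 0.24 and adjusted p 0.00628, with 3 of 3 libraries below all fed ones, and the call held without each library in turn. At the late times it was a log2 fold change of -0.68 with standard error 0.20 and adjusted p 0.0372, and the joint test gave an adjusted p of 0.0250. The late call was lost without 0 h replicate 1 (adjusted p 0.117), 0 h replicate 2 (0.155), 18 h replicate 2 (0.0527), 22 h replicate 1 (0.0602) or 22 h replicate 2 (0.0772). The joint call was lost without 0 h replicate 1 (0.0588) or replicate 2 (0.0619), or without 12 h replicate 2 (0.0666) or replicate 3 (0.0508). A call at 18 h was gained without 18 h replicate 3 (0.0381), and at 22 h without 18 h replicate 1 (0.0142) or replicate 3 (0.0385). With lane in the fit the log2 fold change was -1.47 with adjusted p 0.0538 at 12 h and -1.02 with adjusted p 0.235 for the late times. The 8 h livers were 311 and 346 in the first lane and 416 in the second.

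Pcx was lower at 12 h. LIV held 297, 305 and 249 at 0 h, 291, 305 and 285 at 2 h, 255, 262 and 312 at 8 h, 220.0, 198 and 219.9 at 12 h, 180.2, 249 and 256 at 18 h, and 254, 259 and 245 at 22 h. The 3 livers of 12 h lie below all of 0, 2 and 8 h, 18 h replicate 1 is the lowest of all, and the other late livers lie close to fed replicate 3. At 12 h the test gave a log2 fold change of -0.42 with standard error 0.13 and adjusted p 0.0423 with 3 of 3 libraries below all fed ones, while the joint test did not pass (0.0583). The 12 h call was lost without 0 h replicate 1 (0.140) or replicate 2 (0.164), 2 h replicate 3 (0.0530), 12 h replicate 1 (0.0666), replicate 2 (0.151) or replicate 3 (0.0884), or 22 h replicate 1 (0.0510) or replicate 2 (0.0536). The joint test passed without 0 h replicate 3 (0.0372) or without 18 h replicate 1 (0.0372), replicate 2 (0.0462) or replicate 3 (0.0413). With lane the 12 h log2 fold change was -0.69 with adjusted p 0.0830.

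G6pc3, the phosphatase read in all organs, rose where it is least abundant. Its LIV values were 10.5, 12.8 and 12.7 at 0 h, 15.8, 11.2 and 13.1 at 2 h, 19.6, 15.6 and 14.9 at 8 h, 16.9, 23.8 and 20.7 at 12 h, 18.95, 23.8 and 16.9 at 18 h, and 17.6, 15.3 and 16.7 at 22 h. Every liver of 12, 18 and 22 h lies above every fed liver, and 2 h livers overlap with fed ones. The 18 and 22 h test gave a log2 fold change of 0.59 with standard error 0.16 and adjusted p 0.0216 with 6 of 6 libraries above all fed ones, and the joint test an adjusted p of 0.0203. By single times the 12 h value was a log2 fold change of 0.77 with standard error 0.18 and adjusted p 0.00897 with 3 of 3 above, and the 18 h value a log2 fold change of 0.72 with standard error 0.18 and adjusted p 0.0146 with 3 of 3. Leaving out 0 h replicate 1 lost the joint (0.0598), late (0.113), 12 h (0.0566) and 18 h (0.0707) calls. The late call was also lost without 0 h replicate 2 (0.0611), the joint and 12 h calls without 12 h replicate 2 (0.0503 and 0.0616), and the 18 h call without 18 h replicate 2 (0.0573). With lane the log2 fold change was 0.83 with adjusted p 0.206 at the late times, 1.01 with adjusted p 0.0743 at 12 h and 0.96 with adjusted p 0.130 at 18 h.

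Pck2 rose from a very low level. LIV libraries held 2.82, 5.06 and 4.93 at 0 h, 6.74, 5.58 and 6.26 at 2 h, 6.25, 5.80 and 6.65 at 8 h, 5.94, 10.3 and 6.09 at 12 h, 8.55, 9.73 and 8.19 at 18 h, and 6.13, 7.75 and 5.10 at 22 h. Fed livers are the lowest, 0 h replicate 1 the lowest of all, and the 6 livers of 18 and 22 h all exceed them, with 18 h livers above every 2 and 8 h liver. Late against fed, Pck2 had a log2 fold change of 0.80 with standard error 0.23 and adjusted p 0.0306 with 6 of 6 libraries above all fed ones, for 12 h a log2 fold change of 0.82 with standard error 0.26 and adjusted p 0.0436 with 3 of 3, and for 18 h a log2 fold change of 1.04 with standard error 0.26 and adjusted p 0.0146 with 3 of 3. The joint test did not pass (0.0722). Without 0 h replicate 1 the late (0.180), 12 h (0.210) and 18 h (0.0801) calls were lost. The late call was lost as well without 0 h replicate 2 (0.0570) or 22 h replicate 2 (0.0708). The 12 h call was lost also without 0 h replicate 2 (0.0717), 2 h replicate 3 (0.0537), 8 h replicate 1 (0.0531) or replicate 2 (0.0517), 12 h replicate 2 (0.292, with a log2 fold change of 0.49) or replicate 3 (0.0506), or 22 h replicate 1 (0.0508). With lane the log2 fold change was 0.66 with adjusted p 0.504 for the late times, 0.68 with adjusted p 0.427 at 12 h and 0.90 with adjusted p 0.325 at 18 h.

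Slc37a4 and Fbp2 gave no call in LIV. Slc37a4 held 302, 296 and 263 at 0 h, 227, 290.0 and 302 at 2 h, 251, 212 and 263 at 8 h, 255, 257 and 218 at 12 h, 238, 275 and 326 at 18 h, and 258, 293 and 447 at 22 h. The 8 and 12 h livers lie below all fed ones or, in 8 h replicate 3, level with the lowest, other times overlap with 0 h, and 22 h replicate 3 is alone at the top. Late against fed it had a log2 fold change of 0.09 with standard error 0.15 and adjusted p 0.752, with 2 of 6 late libraries above all fed ones. Fbp2 lay between 0 and 0.606 in all 18 livers and was not tested.

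**Figure D3:**
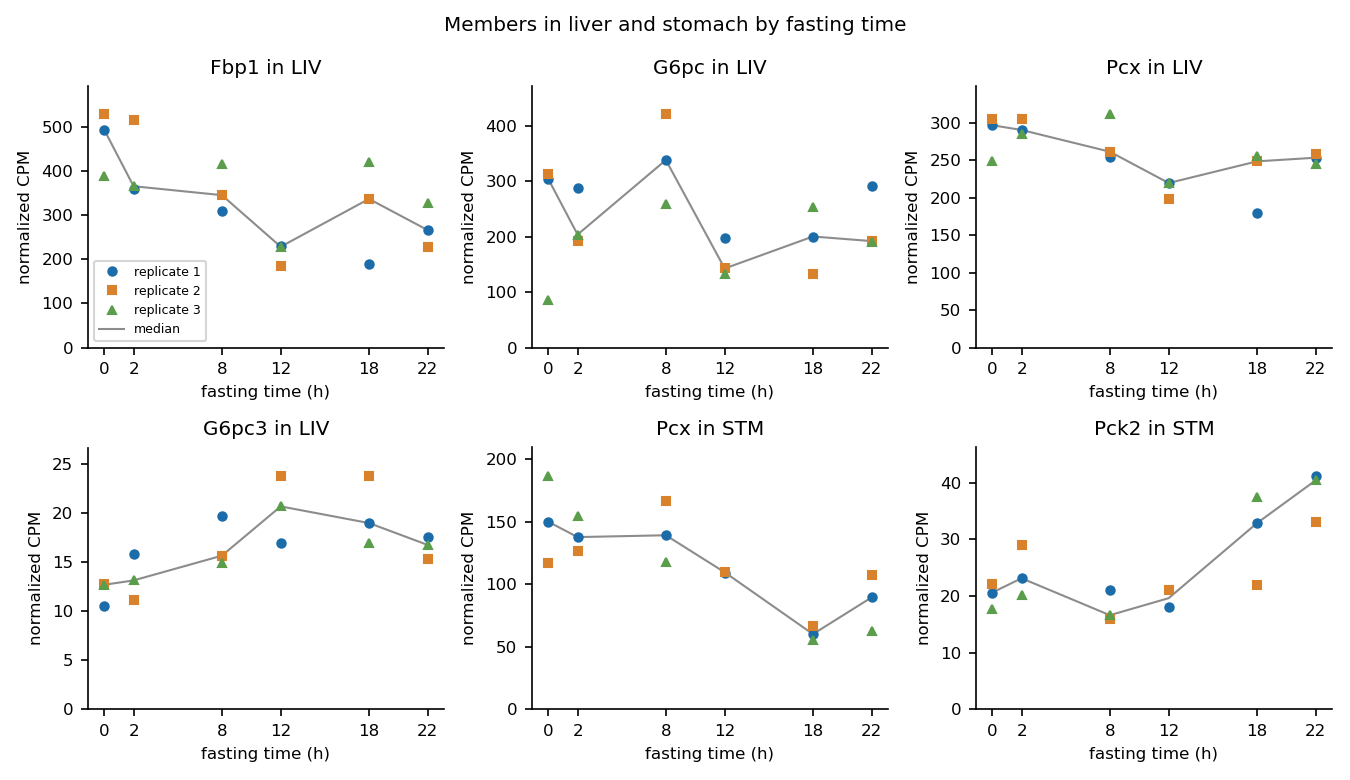
Fbp1, G6pc, Pcx and G6pc3 in LIV and Pcx and Pck2 in STM, as normalized CPM against fasting time in hours. Each point is a library, and the low 12 h livers of Fbp1 and Pcx and the low 18 h stomachs of Pcx can be seen.

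In STM 2 of 6 tested members passed the joint test, Pck2 and Pcx, beside 6.55 percent of the 16281 genes tested. The same genes, 2 of 6, passed for 18 and 22 h against 0 h, beside 15.3 percent of all genes. The median log2 fold change of the 6 was -0.24 and the median absolute value 0.56, against 0.00 and 0.44 over all genes. At 18 h alone 1 of 6 passed, Pcx, where 14.3 percent of all genes did.

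Stomachs of 18 and 22 h held less Pcx. The values were 150.1, 116.9 and 187.1 at 0 h, 137.8, 126.2 and 154.7 at 2 h, 139.2, 166.4 and 118.1 at 8 h, 109.2 and 109.9 at 12 h, 60.04, 66.3 and 55.6 at 18 h, and 89.5, 107 and 62.2 at 22 h. Every library of 18 and 22 h lies below every library of 0 to 12 h, and 18 h is lower still, with 22 h replicate 3 inside the range of 18 h. The late test gave a log2 fold change of -1.06 with standard error 0.18 and adjusted p 0.00365 with 6 of 6 libraries below all fed ones, the 18 h test a log2 fold change of -1.32 with standard error 0.22 and adjusted p 0.00296 with 3 of 3, and the joint test an adjusted p of 0.0114. Of the 9 stomachs of 0, 18 and 22 h, left out in turn, none undid the late or the 18 h call, and stomachs of other times were not left out. Replicates 1 and 3 of 18 h had close marker sums, 127724 and 126536 for parietal and chief cells. Keratinocyte sums were 4154 and 4021, and skeletal muscle sums 2149 and 2084. Replicate 2 held 71091, 3648 and 3965 in the same order. The alike stomachs were not left out together, and whether they are independent was not tested. The joint call was lost without 18 h replicate 1 (0.0593) or replicate 3 (0.0612). Leaving out the stomachs with liver message gave a late log2 fold change of -0.88 with adjusted p 0.0348. With lane the log2 fold change was -0.69 with adjusted p 0.736 for the late times and -0.95 with adjusted p 0.567 at 18 h. Gastric surface markers were low in some of the same stomachs: their sum was 54607, 33359 and 99605 at 0 h, 9706, 36322 and 9818 at 18 h, and 48518, 18222 and 10211 at 22 h, and whether this bears on Pcx was not tested.

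Pck2 took the opposite direction in STM. Its values were 20.6, 22.1 and 17.7 at 0 h, 23.1, 29.1 and 20.3 at 2 h, 21.1, 15.9 and 16.6 at 8 h, 18.1 and 21.1 at 12 h, 32.9, 22.02 and 37.5 at 18 h, and 41.3, 33.1 and 40.5 at 22 h. At 22 h all 3 libraries exceed all of 0 to 12 h, and at 18 h replicate 2 overlaps with fed stomachs. The late test gave a log2 fold change of 0.77 with standard error 0.19 and adjusted p 0.0164 with 5 of 6 libraries above all fed ones, and the joint test an adjusted p of 0.0213. The joint call was lost without 18 h replicate 1 (0.0665) or replicate 3 (0.0605), the late call was lost without 0 h replicate 3 (0.0838), and a call at 18 h was gained without 18 h replicate 2 (0.0173). Without both stomachs holding liver message the late log2 fold change was 0.69 with adjusted p 0.0936, and with lane it was 0.93 with adjusted p 0.724. Fbp2, highest in this organ, held 53.5, 46.02 and 57.6 at 0 h, 52.6, 35.5 and 34.2 at 2 h, 42.1, 30.7 and 31.8 at 8 h, 34.4 and 49.4 at 12 h, 28.7, 71.2 and 36.7 at 18 h, and 49.3, 24.9 and 36.3 at 22 h. Its fed and fasted libraries overlap, and no test passed (joint adjusted p 0.676).

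In iBAT 2 of 6 tested members passed the joint test, Pck2 and G6pc3, beside 29 percent of the 14529 genes tested. In the late test 1 of 6 passed, Pck2, beside 20.9 percent of all genes. The median log2 fold change was 0.44 and the median absolute value 0.44 for the members, against -0.07 and 0.46 over all genes. At 22 h alone 2 of 6 passed, where 41 percent of all genes did.

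Both genes stand high in the 22 h depots. Pck2 held 15.4, 17.8 and 15.0 at 0 h, 21.02, 19.2 and 15.0 at 2 h, 21.5, 17.8 and 19.8 at 8 h, 20.9, 23.5 and 30.6 at 12 h, 21.7, 15.1 and 18.5 at 18 h, and 33.4 and 33.04 at 22 h. G6pc3 held 31.7, 34.7 and 27.7 at 0 h, 35.7, 30.8 and 29.2 at 2 h, 35.96, 36.4 and 36.3 at 8 h, 35.4, 35.2 and 63.8 at 12 h, 34.7, 26.9 and 33.1 at 18 h, and 62.4 and 64.4 at 22 h. For Pck2 the 22 h libraries lie above all others, the nearest being 12 h replicate 3, and for G6pc3 the 22 h libraries and 12 h replicate 3 lie apart from the rest. At 22 h Pck2 had a log2 fold change of 1.05 with standard error 0.23 and adjusted p 0.00201, with 2 of 2 libraries above all fed ones. G6pc3 had a log2 fold change of 1.01 with standard error 0.24 and adjusted p 0.00329, with 2 of 2 as well. Both calls rest on these 2 libraries. Without replicate 2 or replicate 3, in that order, a lone 22 h library is compared with 0 h and is assumed to vary like the other groups, and under that assumption the adjusted p was 0.0203 and 0.00679 for Pck2 and 0.0250 and 0.0133 for G6pc3. Libraries of 2, 8 and 12 h, 12 h replicate 3 among them, were not left out. The 22 h libraries were read in lanes 1 and 3, which no other retained iBAT library used, and the fed ones in lanes 8 and 5. Replicate 2 of 22 h is also the shallowest of the organ (3156101 counts) and the only retained one of the later library series, so that lane and fasting cannot be told apart. Over the late times Pck2 had a log2 fold change of 0.63 with standard error 0.19 and adjusted p 0.0269 with 4 of 5 above all fed ones, and the joint tests gave 0.0138 for Pck2 and 0.0134 for G6pc3. The late call was lost without 0 h replicate 1 (0.0733), replicate 2 (0.0699) or replicate 3 (0.0718), 18 h replicate 1 (0.0501) or 22 h replicate 2 (0.0574). The joint calls were lost without 22 h replicate 2 (0.0813 for Pck2, 0.0861 for G6pc3), and that of G6pc3 also without 22 h replicate 3 (0.0562). The 22 h libraries also hold the highest sums of the 5 adipocyte markers (27816 and 22410.2), all 5 detected and Fabp4 most abundant, and whether this bears on the members was not tested.

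Pck1 in iBAT held 2181, 2397 and 365 at 0 h, 4092, 4273 and 3988 at 2 h, 4858, 3158 and 3068 at 8 h, 2558, 3054 and 2991 at 12 h, 3312, 3361 and 4413 at 18 h, and 2099.8 and 2883 at 22 h. Replicate 3 of 0 h is far below all others, the 2 h libraries are above the 3 fed ones, and 22 h overlaps with fed. No test passed (joint adjusted p 0.203, and for 18 and 22 h log2 fold change of 0.88 with standard error 0.41 and adjusted p 0.129, with 4 of 5 late libraries above all fed ones), but without 0 h replicate 3 the joint adjusted p was 0.0310. Fbp2 held 31.0, 25.2 and 26.8 at 0 h, 25.3, 17.0 and 13.1 at 2 h, 30.7, 22.2 and 22.9 at 8 h, 35.4, 15.5 and 30.6 at 12 h, 26.6, 39.7 and 40.8 at 18 h, and 41.7 and 29.7 at 22 h. Its 2 h libraries reach lowest and its late libraries highest, with overlap, and it did not pass (joint adjusted p 0.146). Pcx lay between 463 and 862 with a median of 621, and Slc37a4 between 13.1 and 33.6 with a median of 22.5, and neither passed (joint adjusted p 0.778 and 0.508).

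In pgWAT 0 of 7 tested members passed the joint test in edgeR and 0.0 percent of the 16412 genes tested did. The unadjusted p was under 0.05 for 1, Pck2, which DESeq2 called (1 gene, beside 3.35 percent of all genes in its own fit). In the late test 0 of 7 passed, beside 0.00609 percent of all genes, with 2 at an unadjusted p under 0.05, Pck1 and Pck2, and 1 by DESeq2, Pck2 (7.26 percent of all genes). Pck1 held 779, 827 and 580.5 at 0 h, 1823, 1420.4 and 2368 at 2 h, 1938, 1408 and 1129 at 8 h, 1189.9, 480.2 and 1225 at 12 h, 1566, 2973 and 1539 at 18 h, and 2227, 209 and 2588 at 22 h. Fed depots are lower than all of 2 and 8 h, and the late depots are above them except for 22 h replicate 2, which holds epididymis message and few adipocyte markers. The late test gave a log2 fold change of 1.34 with standard error 0.57 and adjusted p 0.193, with 5 of 6 libraries above all fed ones. Without 22 h replicate 2 the log2 fold change was 1.60 with adjusted p 0.0387, so that the call turns on a depot of mixed tissue.

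Pck2 in pgWAT held 30.4, 38.1 and 23.8 at 0 h, 37.1, 43.3 and 37.1 at 2 h, 36.7, 34.1 and 24.9 at 8 h, 35.7, 35.99 and 34.8 at 12 h, 41.002, 34.8 and 45.4 at 18 h, and 48.3, 79.9 and 53.4 at 22 h. The 22 h depots are the highest, and 22 h replicate 2 is highest of all. The late test gave a log2 fold change of 0.69 with standard error 0.19 and adjusted p 0.109 in edgeR with 5 of 6 late libraries above all fed ones, and DESeq2 a log2 fold change of 0.69 with adjusted p 0.0208. Pcx held 1018, 1285 and 1902 at 0 h, 972, 1077 and 1264 at 2 h, 926, 849 and 1214 at 8 h, 1096, 1269 and 999 at 12 h, 1119, 1167 and 554 at 18 h, and 1175, 143.9 and 1035 at 22 h. It is lowest in the mixed depots 22 h replicate 2 and 18 h replicate 3 and did not pass (joint adjusted p 0.873). Fbp1 ranged from 0 to 29.8, highest in 18 h replicate 2, the library with most Alb.

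In psWAT 0 of 6 tested members passed the joint test in edgeR, and neither did any gene (0.0 percent of 16721). The unadjusted p was under 0.05 for 1, Pcx, and DESeq2 called 2, Pck1 (adjusted p 0.0327) and Pcx (0.0300), beside 12.3 percent of all genes in its own fit. Without 12 h replicate 3, the depot with brain message, a fit chosen after seeing the data, the joint adjusted p in edgeR was 0.242 for Pck1 and 0.201 for Pcx. At 18 and 22 h against 0 h 0 of 6 passed, beside 0.0 percent of all genes, with 0 at an unadjusted p under 0.05 and 0 by DESeq2. Pck1 held 1381, 833 and 62.9 at 0 h, 182, 72.6 and 113.5 at 2 h, 3966, 733 and 1588 at 8 h, 270.2, 47.7 and 257 at 12 h, 269.6, 841 and 1186 at 18 h, and 41.3 and 1928 at 22 h. Pcx held 1058, 571 and 82.6 at 0 h, 78.1, 49.2 and 48.6 at 2 h, 900.2, 272 and 731 at 8 h, 97.2, 51.3 and 172 at 12 h, 156.6, 253 and 395 at 18 h, and 11.9 and 476 at 22 h. At 0 and 22 h high and low libraries occur at the same time for both genes. Every 2 h library lies below every 8 h library for both. The libraries that are low in the first gene are low in the second. The late test of Pck1 gave a log2 fold change of 0.19 with standard error 1.05 and adjusted p 1.000, with 1 of 5 late libraries above all fed ones.

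The adipocyte message of these psWAT libraries varied as well. The 5 adipocyte markers, all detected and led by Fabp4 or Cfd, summed to 30782, 23714 and 1749 at 0 h, 2636, 768 and 1172 at 2 h, 38371, 12769 and 25291 at 8 h, 3909.7, 1510.1 and 5344 at 12 h, 4378, 9862 and 16461 at 18 h, and 540.1 and 19049 at 22 h. Immune markers, led by Ptprc, ran from 201 to 1589.6. They summed to 567, 643 and 1357 at 0 h, 1213, 1188 and 1075 at 2 h, and 201, 665 and 437 at 8 h. At 12 h the sums were 1356, 1367 and 276, at 18 h 1589.6, 1075 and 628, and at 22 h 1239 and 490. The fed library low in adipocyte markers had the highest immune sum of 0 h, and whether this bears on the members was not tested. Pck1 and Pcx were set beside Adipoq on log2 of normalized CPM plus 1 in the 3 depots, 6 relations in all, with 100000 permutations, after seeing the data. In psWAT (17 libraries) Pck1 had a Pearson r of 0.962 and a Spearman rho of 0.936, with adjusted p 3e-05 for both, an r of 0.949 without the 2 farthest libraries and of 0.989 within fasting times. For Pcx r was 0.980 and rho 0.985, with adjusted p 3e-05 for both, 0.981 without the 2 farthest and 0.980 within fasting times. Within lane 5 (10 libraries) r was 0.958 for Pck1 and 0.963 for Pcx, and within lane 7 (6 libraries) 0.950 and 0.986. A larger share of adipocytes and more RNA per adipocyte cannot be told apart, and the relation to a cell type was not tested.

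In the other depots the relation was weaker or depended on few libraries. In pgWAT (18 libraries) Pck1 had an r of 0.771 (adjusted p 0.00140) and a rho of 0.585 (0.0250), with 0.490 without the 2 farthest libraries, 0.886 within fasting times, and -0.214 in lane 5 and 0.870 in lane 6 (8 libraries each). Pcx had an r of 0.746 (0.0581) and a rho of -0.0836 (0.740), with -0.238 without the 2 farthest, 0.853 within fasting times, and -0.0251 and 0.927 in those lanes. In iBAT (17 libraries) Pck1 gave -0.156 (0.540) with rho -0.257 (0.383), -0.125 without the 2 farthest and -0.462 within times. Pcx there gave -0.334 (0.229) with rho -0.392 (0.181), -0.274 and -0.425, and within lane 5 (7 libraries) r was -0.240 for Pck1 and -0.673 for Pcx. No other lane had 6 libraries.

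**Figure D4:**
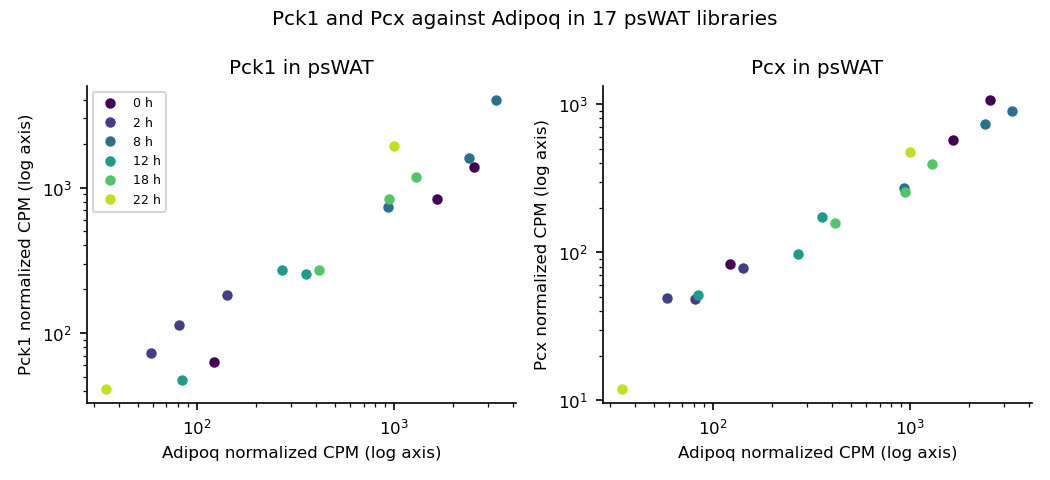
Pck1 and Pcx against Adipoq in the 17 psWAT libraries, all as normalized CPM on log axes. Each point is a library with colour for fasting time, and both genes rise with Adipoq across times.

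Of the 8 members 4 were tested in each brain region, Pck2, G6pc3, Pcx and Slc37a4. In BRN 0 of 4 passed the joint test in edgeR (0.00597 percent of 16749 genes), with 0 at an unadjusted p under 0.05 and 0 by DESeq2. In the late test 1 of 4 passed, Pck2, beside 11.2 percent of all genes. The median log2 fold change of the 4 was 0.55, against -0.09 over all genes. Pck2 held 25.1, 25.8 and 30.05 at 0 h, 31.3, 35.4 and 33.4 at 2 h, 34.8 and 38.9 at 8 h, 36.1, 33.3 and 39.6 at 12 h, 51.4 and 38.5 at 18 h, and 47.3, 34.8 and 34.1 at 22 h. All 5 late libraries lie above every fed one, and so do those of 2, 8 and 12 h. The late test gave a log2 fold change of 0.63 with standard error 0.19 and adjusted p 0.0401, with 5 of 5 above. It was lost without 0 h replicate 1 (0.161), replicate 2 (0.115) or replicate 3 (0.0800), 18 h replicate 2 (0.117), or 22 h replicate 1 (0.0986) or replicate 2 (0.0600). Without 18 h replicate 3 G6pc3 (0.0281) and Pcx (0.0124) passed, and Pcx also without 22 h replicate 3 (0.0181). With a term for the series of library numbers, a fit chosen after seeing the data, the log2 fold change of Pck2 was 0.72 with adjusted p 0.455. Astrocyte markers in BRN summed to 344, 351 and 391 at 0 h, 473, 405 and 365 at 2 h, and 547 and 522 at 8 h. At 12 h they were 470, 431 and 579, at 18 h 522 and 439, and at 22 h 403, 485 and 473. Neuron markers summed to 3506, 3409 and 3081 at 0 h, 3299, 3132 and 3653.5 at 2 h, and 2651 and 2459 at 8 h. At 12 h these were 3221, 2394 and 3118, at 18 h 1834 and 3085, and at 22 h 2685, 2252 and 3389. All late astrocyte sums lie above the fed ones, and late neuron sums overlap with fed. Whether this bears on Pck2 was not tested.

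In OB 2 of 4 passed the joint test, Pck2 and G6pc3, beside 15.3 percent of the 16742 genes tested. Late against 0 h, 0 of 4 passed in edgeR (1.95 percent of all genes), with 0 at an unadjusted p under 0.05 and 0 by DESeq2. Pck2 held 34.4, 34.02 and 37.1 at 0 h, 33.1, 32.8 and 35.99 at 2 h, 30.5, 31.5 and 30.4 at 8 h, 34.7, 30.5 and 31.4 at 12 h, 41.97, 41.5 and 36.7 at 18 h, and 43.2, 34.5 and 34.01 at 22 h. G6pc3 held 48.8, 47.6 and 57.7 at 0 h, 51.8, 47.6 and 48.5 at 2 h, 44.7, 48.6 and 44.2 at 8 h, 49.2, 44.6 and 47.3 at 12 h, 66.1, 53.6 and 58.4 at 18 h, and 61.8, 50.6 and 52.5 at 22 h. Both reach their highest values at 18 and 22 h and their lowest at 8 and 12 h, within narrow ranges. These overlap with 0 h, except that all 8 h libraries of Pck2 lie below every 0 h library. The joint adjusted p was 0.0499 for Pck2, with a log2 fold change of 0.19 at 18 h and 2 of 3 libraries above all fed ones. For G6pc3 it was 0.0456, with 0.21 at 18 h and 2 of 3 libraries above. The Pck2 call was lost without 0 h replicate 1 (0.0662) or replicate 2 (0.0546), or 18 h replicate 1 (0.147), replicate 2 (0.108) or replicate 3 (0.0503). That of G6pc3 was lost without 0 h replicate 1 (0.0557), 18 h replicate 1 (0.158) or replicate 3 (0.0871), or 22 h replicate 3 (0.0613). With lane the joint adjusted p was 0.112 for Pck2 and 0.102 for G6pc3.

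In CBL 0 of 4 passed the joint test in edgeR, beside 2.99 percent of the 15976 genes tested, with 0 at an unadjusted p under 0.05 and 0 by DESeq2. The late test passed 0 of 4 (0.344 percent of all genes), again with 0 and 0. In BST 0 of 4 passed the joint test (0.107 percent of 16784 genes), with 1 at an unadjusted p under 0.05, Pcx, and 0 by DESeq2. Late against 0 h, 0 of 4 passed there (0.0596 percent), with 0 at an unadjusted p under 0.05 and 0 by DESeq2. Pck2 in CBL had lowest 27.4, median 40.2, highest 48.1, and in BST lowest 21.1, median 24.6, highest 28.7. Pcx in BST had lowest 83.6, median 102.3, highest 113.7, and G6pc3 there lowest 53.2, median 60.4, highest 65.5.

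Whether the fat depots change otherwise than LIV was tested as the difference of the changes at 18 and 22 h. All 8 members were in the fit, but only some had enough counts to be tested in both organs on their own, which were Pck1, Pck2, G6pc3, Pcx and Slc37a4 in iBAT and psWAT, and Fbp1 besides these in pgWAT. In iBAT 0 of these 5 differed from LIV in edgeR, beside 2.8 percent of the 19531 genes tested, with 0 at an unadjusted p under 0.05. The same was 0 of 6 in pgWAT (1.39 percent) and 0 of 5 in psWAT (0.00512 percent), with 0 at an unadjusted p under 0.05 in both, and DESeq2 was not run for it. For Pck1 the log2 difference was 0.14 with standard error 0.99 in iBAT, 0.65 with 0.97 in pgWAT and -0.54 with 0.99 in psWAT. With mouse as a block it was -0.05 with 0.88 in iBAT, -0.28 with 0.90 in pgWAT and -0.94 with 0.91 in psWAT. The mouse of that block was taken from fasting time and replicate number, which are not shown to link organs of a mouse. Without the libraries of mixed tissue, a fit chosen after seeing the data, Fbp1 in pgWAT went from 0.45 to -3.14. The unadjusted p of Fbp1 in that edgeR fit was 0.0332 and the adjusted p 0.265. A call in LIV and none in a depot does not show that they differ, and wide errors leave the size of any difference unknown.

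Genes around the members in the pathway were counted in LIV. Of glycolysis-only genes 2 of 9 tested passed the joint test, of the genes for the bifunctional enzymes that set fructose 2,6-bisphosphate 1 of 4, of the shared steps 6 of 11, of substrate entry 7 of 20 and of regulators 3 of 16, where 16.0 percent of all genes tested passed. At the late times 0, 0, 2, 0 and 1 rose and 0, 0, 3, 4 and 0 fell, where 10.6 percent of all genes passed in either direction. The medians of the log2 fold change were 0.22, 0.01, -0.06, -0.09 and 0.17 in that order, against 0.01 over all genes tested. Genes described below are among the 4 with smallest joint p of each list, in the units and fits used for the members. Fits with lane or without single libraries were not read for these genes. The 2 h livers and replicates 1 and 2 of 8 h share the lane of the fed livers. All livers of 12, 18 and 22 h were read in the other lane, so lane and fasting cannot be told apart in their comparisons with 0 h.

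Among the shared steps the enolase Eno3 and the mutase Pgam1 went in opposite directions. Eno3 held 12.3, 12.3 and 10.4 at 0 h, 15.5, 11.3 and 16.7 at 2 h, 21.9, 23.1 and 18.5 at 8 h, 54.4, 34.7 and 32.7 at 12 h, 24.7, 25.4 and 25.5 at 18 h, and 17.4, 23.5 and 25.8 at 22 h. It was highest in the 3 livers of 12 h and above fed livers at all late times (joint adjusted p 0.000239, late log2 fold change of 1.02 with standard error 0.18 and adjusted p 0.00145, 6 of 6 late livers above all fed ones). By log2 fold change at single times, Eno3 passed at 12 h (1.80, adjusted p 0.000125, 3 of 3 livers above all fed ones), at 18 h (1.11, adjusted p 0.00197, 3 of 3 livers above all fed ones) and at 22 h (0.93, adjusted p 0.0145, 3 of 3 livers above all fed ones). Pgam1 held 26.7, 27.9 and 21.5 at 0 h, 18.0, 24.9 and 27.6 at 2 h, 15.6, 15.4 and 18.5 at 8 h, 13.8, 12.4 and 12.8 at 12 h, 13.7, 16.3 and 14.4 at 18 h, and 15.0, 16.3 and 14.8 at 22 h. All livers from 8 h on lie below every fed liver (joint adjusted p 0.00207, late log2 fold change of -0.75 with standard error 0.13 and adjusted p 0.00169, 6 of 6 late livers below all fed ones). Pgam1 passed at 12 h (-0.96, adjusted p 0.00152, 3 of 3 livers below all fed ones), at 18 h (-0.78, adjusted p 0.00508, 3 of 3 livers below all fed ones) and at 22 h (-0.72, adjusted p 0.0162, 3 of 3 livers below all fed ones). The dehydrogenase Gapdh held 49.2, 44.6 and 57.7 at 0 h, 74.6, 62.2 and 66.4 at 2 h, 76.2, 67.9 and 61.7 at 8 h, 82.3, 99.1 and 85.3 at 12 h, 67.4, 59.9 and 53.1 at 18 h, and 76.3, 72.8 and 68.0 at 22 h. Every liver of 2, 8, 12 and 22 h exceeds every fed one, 12 h most (joint adjusted p 0.00541, late log2 fold change of 0.39 with standard error 0.11 and adjusted p 0.0330, 5 of 6 late livers above all fed ones). Gapdh passed at 12 h (0.82, adjusted p 0.000983, 3 of 3 livers above all fed ones) and at 22 h (0.52, adjusted p 0.0269, 3 of 3 livers above all fed ones).

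Among genes of substrate entry the glycerol 3-phosphate dehydrogenases and a malate dehydrogenase were lower at 18 and 22 h. The cytosolic Gpd1 held 328, 313 and 488 at 0 h, 348, 341 and 291 at 2 h, 573, 439 and 565 at 8 h, 299, 234.4 and 229 at 12 h, 218, 217 and 167.4 at 18 h, and 279, 271 and 253 at 22 h. Its 8 h livers include the highest of all, with 2 of 3 above every fed liver, and the late livers lie below every fed one (joint adjusted p 0.000553, late log2 fold change of -0.70 with standard error 0.14 and adjusted p 0.00333, 6 of 6 late livers below all fed ones). Gpd1 passed at 12 h (-0.56, adjusted p 0.0295, 3 of 3 livers below all fed ones) and at 18 h (-0.91, adjusted p 0.00227, 3 of 3 livers below all fed ones). The mitochondrial Gpd2 held 19.7, 20.9 and 19.3 at 0 h, 22.4, 23.5 and 16.8 at 2 h, 17.1, 18.9 and 16.6 at 8 h, 12.6, 16.7 and 17.2 at 12 h, 14.7, 15.2 and 10.9 at 18 h, and 11.9, 11.9 and 12.5 at 22 h. From 8 h on every liver lies under the fed range (joint adjusted p 0.0124, late log2 fold change of -0.64 with standard error 0.14 and adjusted p 0.00693, 6 of 6 late livers below all fed ones). Gpd2 passed at 18 h (-0.56, adjusted p 0.0359, 3 of 3 livers below all fed ones) and at 22 h (-0.72, adjusted p 0.0199, 3 of 3 livers below all fed ones). Mdh1, of the malate shuttle, held 575, 562 and 459 at 0 h, 378, 468 and 454 at 2 h, 329, 322 and 429.7 at 8 h, 284, 215 and 245 at 12 h, 264, 395 and 345 at 18 h, and 346, 325 and 333 at 22 h. It was lowest at 12 h and low at all later times (joint adjusted p 0.00227, late log2 fold change of -0.67 with standard error 0.13 and adjusted p 0.00288, 6 of 6 late livers below all fed ones). Mdh1 passed at 12 h (-1.10, adjusted p 0.000610, 3 of 3 livers below all fed ones), at 18 h (-0.67, adjusted p 0.0102, 3 of 3 livers below all fed ones) and at 22 h (-0.67, adjusted p 0.0196, 3 of 3 livers below all fed ones). The pyruvate carrier gene Mpc2 held 205, 213 and 179 at 0 h, 151.7, 149.9 and 161.6 at 2 h, 172, 155.4 and 213 at 8 h, 159.03, 124.4 and 133.7 at 12 h, 154.9, 213 and 161.3 at 18 h, and 240.0, 231.9 and 192.4 at 22 h. Livers of 2 and 12 h lie below all fed ones, and late livers overlap with fed (joint adjusted p 0.0233, late log2 fold change of -0.01 with standard error 0.12 and adjusted p 0.968, 2 of 6 late livers below all fed ones). The livers of 18 h replicate 2 and 22 h replicates 1 and 2 lie above all fed ones. Mpc2 passed at 12 h (-0.52, adjusted p 0.0242, 3 of 3 livers below all fed ones).

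Among the regulators Crtc2, a coactivator of CREB, rose. It held 41.7, 45.4 and 39.8 at 0 h, 54.9, 44.9 and 53.4 at 2 h, 55.1, 63.1 and 56.4 at 8 h, 61.6, 52.7 and 65.4 at 12 h, 73.1, 61.3 and 78.9 at 18 h, and 54.6, 55.6 and 68.8 at 22 h. All livers of 8 h and later exceed all fed ones (joint adjusted p 0.0110, late log2 fold change of 0.62 with standard error 0.12 and adjusted p 0.00231, 6 of 6 late livers above all fed ones). Crtc2 passed at 12 h (0.50, adjusted p 0.0180, 3 of 3 livers above all fed ones), at 18 h (0.75, adjusted p 0.00170, 3 of 3 livers above all fed ones) and at 22 h (0.50, adjusted p 0.0373, 3 of 3 livers above all fed ones). The coactivator gene Ppargc1a held 5.13, 5.95 and 3.66 at 0 h, 8.42, 7.74 and 8.62 at 2 h, 4.50, 7.41 and 5.41 at 8 h, 4.80, 8.56 and 6.54 at 12 h, 7.73, 14.5 and 16.3 at 18 h, and 3.28, 6.54 and 8.69 at 22 h. Livers of 2 and 18 h exceed fed ones, and it passed the joint test but not the late one (joint adjusted p 0.0323, late log2 fold change of 0.85 with standard error 0.30 and adjusted p 0.0704, 5 of 6 late livers above all fed ones). Ppargc1a passed at 18 h (1.38, adjusted p 0.0124, 3 of 3 livers above all fed ones). The glucagon receptor gene Gcgr held 422, 412 and 547 at 0 h, 495, 407 and 428 at 2 h, 697, 733 and 519 at 8 h, 574, 759 and 832 at 12 h, 646, 471 and 493 at 18 h, and 509, 488 and 509.7 at 22 h. All 12 h livers and 2 of 3 of 8 h exceed every fed one, and late livers mostly overlap with fed (joint adjusted p 0.0187, late log2 fold change of 0.17 with standard error 0.14 and adjusted p 0.471, 1 of 6 late livers above all fed ones). Gcgr passed at 12 h (0.65, adjusted p 0.0142, 3 of 3 livers above all fed ones). The kinase gene Sik1 held 37.4, 38.99 and 29.8 at 0 h, 30.2, 29.6 and 33.4 at 2 h, 39.8, 30.7 and 30.7 at 8 h, 22.7, 25.02 and 27.2 at 12 h, 33.8, 43.2 and 48.9 at 18 h, and 32.8, 29.9 and 17.0 at 22 h. Its 12 h livers lie below all fed ones, and no test passed (joint adjusted p 0.0517, late log2 fold change of -0.09 with standard error 0.17 and adjusted p 0.784, 1 of 6 late livers below all fed ones). The livers of 18 h replicates 2 and 3 lie above all fed ones.

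Of the glycolysis-only genes the liver pyruvate kinase Pklr held 185, 195 and 240.5 at 0 h, 309, 273 and 216 at 2 h, 352, 399.5 and 260.4 at 8 h, 218, 216 and 188.2 at 12 h, 228, 139.3 and 118.9 at 18 h, and 148.2, 95.9 and 151.5 at 22 h. Livers of 8 h lie above all fed ones and late livers mostly below, and only the joint test passed (joint adjusted p 0.00864, late log2 fold change of -0.50 with standard error 0.19 and adjusted p 0.109, 5 of 6 late livers below all fed ones). The muscle phosphofructokinase Pfkm held 17.2, 19.1 and 12.7 at 0 h, 16.4, 10.4 and 9.92 at 2 h, 17.8, 20.3 and 23.6 at 8 h, 37.5, 25.9 and 21.2 at 12 h, 20.8, 20.7 and 18.6 at 18 h, and 17.0, 16.5 and 20.7 at 22 h. It was highest at 12 h, and late livers overlap with fed (joint adjusted p 0.0118, late log2 fold change of 0.22 with standard error 0.19 and adjusted p 0.495, 3 of 6 late livers above all fed ones). Pfkm passed at 12 h (0.79, adjusted p 0.0197, 3 of 3 livers above all fed ones). Pkm, the other pyruvate kinase, held 9.23, 7.98 and 10.3 at 0 h, 9.62, 10.1 and 10.6 at 2 h, 9.98, 7.05 and 12.3 at 8 h, 22.8, 17.9 and 8.91 at 12 h, 12.2, 11.5 and 11.9 at 18 h, and 9.94, 11.4 and 13.7 at 22 h. The highest livers are 2 of 12 h, and the joint and late tests did not pass (joint adjusted p 0.0905, late log2 fold change of 0.36 with standard error 0.23 and adjusted p 0.320, 5 of 6 late livers above all fed ones). Pkm passed at 12 h (0.87, adjusted p 0.0298, 2 of 3 livers above all fed ones). Skeletal muscle markers in LIV summed to 0.666 at the lowest, 26.8 at the median and 712 at the highest. Whether muscle message bears on Eno3, Pfkm or Pkm was not tested.

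Of the bifunctional enzymes Pfkfb2 held 26.4, 26.6 and 21.5 at 0 h, 17.9, 13.9 and 16.9 at 2 h, 23.04, 23.2 and 22.4 at 8 h, 29.4, 26.5 and 26.9 at 12 h, 25.5, 20.3 and 38.4 at 18 h, and 20.2, 22.9 and 31.4 at 22 h. Its 2 h livers lie below all fed ones, and it passed the joint test alone (joint adjusted p 0.0486, late log2 fold change of 0.09 with standard error 0.17 and adjusted p 0.775, 2 of 6 late livers above all fed ones). Pfkfb3 held 53.1, 48.4 and 13.6 at 0 h, 36.1, 55.8 and 37.3 at 2 h, 8.67, 6.79 and 17.9 at 8 h, 34.3, 22.5 and 17.1 at 12 h, 26.7, 46.2 and 46.2 at 18 h, and 33.5, 47.2 and 48.6 at 22 h. The 8 h livers are among the lowest, and fed replicate 3 lies with them (joint adjusted p 0.0782, late log2 fold change of 0.10 with standard error 0.40 and adjusted p 0.901, 0 of 6 late livers above all fed ones). Pfkfb1, the liver form, held 78.0, 79.8 and 66.6 at 0 h, 80.8, 68.7 and 86.8 at 2 h, 67.4, 67.8 and 82.4 at 8 h, 88.9, 68.4 and 80.4 at 12 h, 63.3, 79.4 and 58.6 at 18 h, and 75.3, 69.8 and 83.6 at 22 h. Fed and fasted livers overlap (joint adjusted p 0.652, late log2 fold change of -0.07 with standard error 0.12 and adjusted p 0.773, 2 of 6 late livers below all fed ones). Pfkfb4 held 1.03, 1.65 and 1.41 at 0 h, 1.08, 2.33 and 1.30 at 2 h, 1.43, 1.34 and 0.665 at 8 h, 1.71, 2.35 and 1.04 at 12 h, 0.927, 0.973 and 1.43 at 18 h, and 0.952, 1.33 and 0.977 at 22 h. It is near the floor, with overlap (joint adjusted p 0.646, late log2 fold change of -0.30 with standard error 0.41 and adjusted p 0.680, 4 of 6 late livers below all fed ones). Pfkfb1, Pfkfb3 and Pfkfb4 passed no test.

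In the other organs the same lists were counted, in the order glycolysis-only, bifunctional, shared, substrate entry and regulators. The share of all genes tested that passed stands with each organ. In STM 0 of 8, 0 of 4, 2 of 12, 4 of 19 and 0 of 16 passed the joint test (6.55 percent of all genes), and in the late test (15.3 percent) 9 of 19 genes of substrate entry fell, with a median log2 fold change of -0.67 against 0.00 over all genes. There 1 shared gene rose and 2 fell, and 3 regulators rose. In the same late stomachs the pancreatic sums lie below all fed ones in 6 of 6 and the gastric surface sums in 4 of 6, and lanes follow time, so that tissue, lane and fasting cannot be told apart in these counts. In iBAT 3 of 8, 1 of 4, 1 of 11, 5 of 17 and 7 of 14 passed the joint test, beside 29 percent of all genes. At the late times (20.9 percent) 4 of 8 glycolysis-only genes fell there, with a median of -0.78 against -0.07, and Hk2 had a log2 fold change of -2.43 with standard error 0.31 and adjusted p 0.000301. Beyond these, 2 bifunctional, 1 shared and 3 substrate genes and 2 regulators fell, and 1 substrate gene and 2 regulators rose. Over all genes in iBAT, 5960 passed at 22 h and 40 at 18 h. The 22 h libraries were read in lanes of their own and hold the highest adipocyte sums of iBAT. Whether lane or tissue bears on these lists was not tested. In OB 1 of 8, 1 of 4, 1 of 12, 4 of 18 and 3 of 14 passed the joint test (15.3 percent), and 1 glycolysis-only gene fell and 1 regulator rose at the late times (1.95 percent). In BRN 0 of 8, 0 of 4, 0 of 12, 0 of 18 and 0 of 14 passed the joint test (0.00597 percent), while 1, 0, 4, 4 and 0 rose late and 2 regulators fell (11.2 percent). In CBL 1 of 6, 0 of 3, 0 of 11, 2 of 18 and 0 of 15 passed the joint test (2.99 percent) and 0 the late one (0.344 percent). In BST, pgWAT and psWAT 0 passed either test in every list.

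Likeness over the 18 LIV libraries is a description and carries no p. Among 14022 other genes compared, those most like Pck1 by Pearson r of log2 values were, with r over all livers and without 0 h replicate 3, Slc7a2 (0.929, and 0.899), Por (0.929, and 0.943), Slc38a2 (0.921, and 0.871), Mknk2 (0.918, and 0.807) and Per1 (0.896, and 0.820). All 5 are lowest in 0 h replicate 3, at 97.8 for Slc7a2, 236 for Por, 66.7 for Slc38a2, 100.05 for Mknk2 and 34.5 for Per1. Those most like G6pc were Zfp644 (0.825, and 0.725), 9030616G12Rik (0.812, and 0.723), Ddhd2 (0.788, and 0.776), Hsd11b1 (0.751, and 0.719) and Dsc2 (0.746, and 0.589). Pck1 and G6pc had r 0.356, and -0.130 without 0 h replicate 3. Over the 9 organ medians and 16579 genes, Tmem37 (0.999), Ephx2 (0.993), Hacl1 (0.993), Sugct (0.989) and P2ry2 (0.985) were most like Pck1. Dhrs9 (0.985), Adamtsl3 (0.985), Sbk2 (0.980), Txlnb (0.977) and Myo5c (0.965) were most like Fbp2. For G6pc 501 genes had an r over 0.99, so that the first 5 (Gm30262, Cyp21a1, Crp, Serpina3k and Uox) have no special place among genes of LIV.

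Promoter windows of 250 bases upstream in the RefSeq table of GRCm38.p6 were searched for 6 short motifs on both strands, overlaps included. The cyclic AMP response element TGACGTCA is in 1.55 percent of the 32851 windows, and its core TGACG, which is CGTCA on the other strand, is in 17.8 percent. The FOXO core TGTTTAC, which reads GTAAACA on the other strand, is in 3.17 percent, and the TATA motif TATAAA, with its complement TTTATA, is in 12.4 percent. The variant elements TTACGTCA (with TGACGTAA as its complement) and TTACGTAA are in 0.447 and 0.113 percent, and were chosen knowing sites of these genes. All 8 members have a window, 11 in all. Those of Pck1 and G6pc are shown because the genes share LIV, and those of Fbp1 and Fbp2 because neighbours have their highest medians in different organs. Capitals mark the matches, and each sequence is written 5 prime to 3 prime on the strand of its gene. The Pck1 window (chr2:173152823-173153072, plus strand) holds TTACGTCA, within which lies the core, at -93 to -86. The G6pc window (chr11:101367466-101367715, plus strand) holds TTACGTAA at -162 to -155 and TATAAA at -29 to -24. The Fbp1 window (chr13:62888283-62888532, minus strand) holds none of the letters searched, which says only that they are not in it. The Fbp2 window (chr13:62858401-62858650, minus strand) holds CGTCA at -97 to -93. Slc37a4 is also highest in LIV, and its windows are not shown. They hold the core at -61 to -57 in window 1, and at -214 to -210 and -82 to -78 in window 2, which overlaps window 1. Window 3 of Slc37a4 holds TATAAA at -32 to -27. A match describes letters and not binding.
Pck1: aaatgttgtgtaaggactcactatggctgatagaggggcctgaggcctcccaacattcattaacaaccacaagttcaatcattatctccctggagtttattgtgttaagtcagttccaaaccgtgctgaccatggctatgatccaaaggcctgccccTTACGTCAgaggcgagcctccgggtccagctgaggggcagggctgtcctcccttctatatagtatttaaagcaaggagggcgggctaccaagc
G6pc: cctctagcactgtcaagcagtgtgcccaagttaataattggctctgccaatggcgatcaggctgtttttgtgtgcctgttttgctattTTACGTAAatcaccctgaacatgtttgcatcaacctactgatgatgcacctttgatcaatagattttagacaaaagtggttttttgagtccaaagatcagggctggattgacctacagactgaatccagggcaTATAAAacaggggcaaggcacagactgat
Fbp1: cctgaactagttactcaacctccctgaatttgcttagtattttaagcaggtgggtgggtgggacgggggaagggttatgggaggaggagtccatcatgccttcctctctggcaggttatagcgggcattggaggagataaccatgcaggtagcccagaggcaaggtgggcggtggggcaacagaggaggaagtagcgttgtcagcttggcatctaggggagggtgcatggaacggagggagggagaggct
Fbp2: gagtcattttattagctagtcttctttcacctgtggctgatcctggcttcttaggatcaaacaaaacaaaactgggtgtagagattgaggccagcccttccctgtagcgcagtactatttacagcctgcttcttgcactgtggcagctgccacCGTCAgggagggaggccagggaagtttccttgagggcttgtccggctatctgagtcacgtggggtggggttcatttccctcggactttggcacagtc

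Each fasting time rests on 3 mice or fewer, and at an adjusted p under 0.05 nearly every call of a member was lost without some single library. That of Fbp1 in LIV at 12 h held without each of the 18 livers. Those of Pcx in STM in the late and 18 h tests held without each library of 0, 18 and 22 h, the only ones left out there. The 18 h stomachs with close marker sums, replicates 1 and 3, were not left out together. In iBAT the 22 h calls of Pck2 and G6pc3 rest on 2 libraries, too few to try them without one unless the other is assumed to vary like the other groups. In LIV, STM and OB no call stood with lane in the fit, which has few libraries to separate lane from time, and no such fit was made in iBAT or pgWAT. Message levels are not enzyme activity or glucose output. Fasts ended at the same hour but started at different hours, and only males of a single strain were used.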

How the data were processed

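The counts are raw read counts for each gene, used as deposited by the authors. By the submitters' processing notes they were made before deposit from paired-end reads of a stranded mRNA kit, aligned to GRCm38.p5 with TopHat2 2.1.1, and uniquely mapped reads were counted with HTSeq 0.9.1 on Gencode M16. The strand setting of the counting is not stated. Gene positions and exon lengths here are from Gencode M21.

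Each organ was fitted on its own in edgeR 4.0.16 with TMM factors, robust quasi-likelihood and fasting time as groups. A gene entered the fit when 3 or more libraries passed the CPM that 10 counts make at the median total of the organ. An F test over the 6 times, the mean of 18 and 22 h against 0 h, single times against 0 h, and the change of each fat depot minus that of LIV were tested across all genes kept. Adjusted p values are from edgeR, by Benjamini and Hochberg over all genes tested in an organ, and a gene passed at an adjusted p under 0.05. The alternatives were DESeq2 1.42.0, its size factors, no filter, all libraries, a replicate block, a covariate of lane or library series, an absolute log2 fold change over 1, and single libraries left out in turn, every one in LIV and those of 0, 18 and 22 h elsewhere.

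All 8 members are named. From each pathway list the 4 genes with smallest joint p in LIV were chosen, of which some are not reported here, and for likeness the 5 genes with highest r. The members and lists were chosen with earlier results of these data known. R 4.3.3, limma 3.58.1, Python 3.11.15, pandas 2.3.3, numpy 2.4.6, scipy 1.17.1 and matplotlib 3.10.9 were used.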

Additional observations from a re-analysis of the deposited data

Results flagged for a closer look

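Values of 3 counts or more in 5 cases stand out because a library that the study left out for its low total is above every retained library of the organ, fed ones included. These are raw CPM, and the libraries enter no result above. Pck2 was 336.646 in BRN 8 h replicate 3, from 44 counts in a total of 130701, and 178.668 in BRN 18 h replicate 1, from 50 counts in 279848, where the highest retained library had 45.96. Pcx was 217.975 in BRN 18 h replicate 1, from 61 counts, against 162.4. In iBAT 22 h replicate 1 Pck2 was 55.1753 against 33.6, and Fbp2 was 45.1771 against 42.7. Some other values in libraries left out lie below every retained one, while others lie inside the retained range. In BRN 8 h replicate 3 G6pc3 and Slc37a4 were 0, where the lowest retained libraries had 46.9951 and 10.8344. There 3 counts stand for 22.95 CPM, so that the 0 of Slc37a4 is not distinguished from its lowest retained value. In BRN 18 h replicate 1 G6pc3 was 39.3071 and Slc37a4 0, and in STM 12 h replicate 3 Pcx was 49.2368 against 60.4658. Whether depth or fasting bears on these values was not tested.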

How the results depend on the processing

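In the joint test over the 6 times the count in OB was 0 with DESeq2 size factors, 1 without a filter and 0 with lane, in place of 2. In BRN it was 1 and in CBL 1 without a filter, in place of 0. In STM it was 1 with all libraries and 0 with lane, in place of 2, and in LIV 4 by DESeq2, 5 without a filter and 0 with lane, in place of 2. DESeq2 called 1 in pgWAT and 2 in psWAT, where edgeR called 0. Over all genes DESeq2 called 25.6 percent in LIV, 3.35 in pgWAT and 12.3 in psWAT.

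For 18 and 22 h against 0 h, the count in BRN was 2 by DESeq2, 0 with all libraries, 2 with the replicate block, 0 with library series and 0 at an absolute log2 fold change over 1, in place of 1. In STM it was 1 with all libraries, 0 with lane, 1 without the libraries of mixed tissue and 1 at an absolute log2 fold change over 1, in place of 2. In LIV it was 0 with lane and 0 at that threshold, in place of 3. In iBAT it was 2 by DESeq2, 0 without a filter and 0 at that threshold, in place of 1, and in pgWAT DESeq2 called 1 in place of 0. Over all genes DESeq2 called 18.7 percent in BRN, 27.2 in iBAT and 7.26 in pgWAT. The fits without mixed tissue and with library series were chosen after seeing the data.

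Without a filter in LIV edgeR kept 25595 genes and set the prior degrees of freedom to infinity for all of them, so that the spread of each gene was not used. The moderated variance of Pck1 went from 7.42 to 0.666, and its joint adjusted p became 5.69e-21. The same prior was set in OB and BRN, and for 25574 of 29623 genes in CBL and 27047 of 30576 in BST. In CBL the prior of Pcx was 3376.48, so its spread hardly counted there either.

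Single libraries were left out in turn in 87 fits, every library in LIV and only those of 0, 18 and 22 h in the other organs. Where this leaves 1 library at a time, that library is assumed to vary like the other groups. The fits gave joint counts of 0 to 2 in OB, 0 to 2 in STM, 0 to 5 in LIV and 0 to 3 in iBAT. Late counts were 0 to 3 in BRN, 1 to 2 in STM, 0 to 3 in LIV, 0 to 1 in iBAT and 0 to 1 in pgWAT. All other counts were 0 throughout. The cause was not tested.

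With the replicate block the other counts were unchanged. With mouse, as taken from fasting time and replicate number, as a block the interaction gave 0 members. Replicate numbers do not pair libraries by expression: the median correlation of residual pairs was -0.00349 in LIV and 0.0929 in iBAT, where 20 of 40 pairs were over 0.1.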
